A study of Mus musculus with 6 samples.

Results

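The genes described here encode the lysosomal proton pump, the hydrolases that work in the acid lumen and the membrane proteins around them. They are 38 named genes of the 32286 features in the count matrices, matched by symbol, and all 38 were found. The list holds 15 genes of the vacuolar ATPase (V-ATPase), 9 cathepsins and 14 others. Lysosomes are the organelles in which cells break down material taken up from outside or delivered from within. The V-ATPase pumps protons into them: its cytosolic V1 sector splits ATP and turns a rotor, and its membrane V0 sector carries the protons across. Macrophages clearing dead muscle rely on this machinery, and osteoclasts use the same pump and cathepsin K outside the cell to dissolve bone.

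The cells came from injured quadriceps of Cdh5-CreERT2:R26R-tdTomato mice, in which a tamoxifen-dependent Cre driven by an endothelial promoter switches on a red reporter. All groups shared this genotype and a cardiotoxin injury. The CLL group, 3 mice, received clodronate liposomes into a vein, which partly ablate circulating monocytes. The SHAM group, 3 mice, received liposomes with PBS. Dosing was on the day before the injury (1 day) and again 2 days later than the injury, and harvest was on day 5. Each mouse gave 1 library. No dose, age, sex or day of tamoxifen is stated in the labels.

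The 6 libraries held 23873416 to 94841003 unique molecular identifiers (UMIs, counted RNA molecules) and 1848 to 19346 kept cells. The median was 879 to 13820 UMIs per kept cell. SHAM replicate 3 stood apart with a median of 0.127% mitochondrial UMIs, against 1.46% to 4.25% in the other libraries, and SHAM replicate 1 had by far the most cells. Libraries shared at most 97 cell barcodes in any pair. Cells fell into 28 clusters, of which 19 were named in 11 classes from marker genes. The ending "-like" marks that a name comes from RNA alone. Values are CPM, the UMIs of a gene summed over the cells of 1 class in 1 library and scaled to that sum's total. Folds are log2 of CLL over SHAM with a standard error (SE) from edgeR's quasi-likelihood test, and a gene passed at a Benjamini-Hochberg adjusted p under 0.05 over all genes tested.

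Transcription factors of the TFEB family, of which Tfeb is a member of the list, bind the letters CACGTG and prefer the longer TCACGTGA in the promoters of many lysosome genes. A promoter from RefSeq (build GRCm38.p6, 250 bases before to 50 after the start) was found for 31 of the 38 genes. CACGTG, which reads alike on both strands, occurred in 12 of the 31 (38.7%) and in 8.09% of 27025 genes in the table. TCACGTGA, which contains it, occurred in 6 of 31 (19.4%: Atp6v0d1, Atp6v0e, Atp6v1a, Ctsa, Ctsd and Mcoln1) and in 1.12% of all. No entry was found for Atp6v1b2, Atp6v1c1, Atp6v1g1, Atp6v1h, Atp6v0d2, Ctsb and Ctsh. A match describes letters and is not a site shown to be bound.

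The 250 bases before the start are shown for pump, protease and membrane genes with matches and for Gusb, which had none and rose in a macrophage cluster below. Capitals mark CACGTG or TCACGTGA. They lie at chr16:44139260-44139509 on the minus strand for Atp6v1a, the catalytic V1 subunit, and at chr4:117887330-117887579 (minus) for Atp6v0b, a proteolipid of the V0 ring. The others are chr2:164833523-164833772 (plus) for Ctsa, chr7:142387828-142388077 (minus) for Ctsd, chr8:3500269-3500518 (plus) for Mcoln1, chr8:13158911-13159160 (plus) for Lamp1 and chr5:130003050-130003299 (minus) for Gusb.
Atp6v1a: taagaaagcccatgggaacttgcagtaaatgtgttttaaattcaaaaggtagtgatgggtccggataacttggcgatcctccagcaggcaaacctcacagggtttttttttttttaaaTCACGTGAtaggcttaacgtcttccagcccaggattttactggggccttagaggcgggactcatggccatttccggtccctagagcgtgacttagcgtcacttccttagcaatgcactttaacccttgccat
Atp6v0b: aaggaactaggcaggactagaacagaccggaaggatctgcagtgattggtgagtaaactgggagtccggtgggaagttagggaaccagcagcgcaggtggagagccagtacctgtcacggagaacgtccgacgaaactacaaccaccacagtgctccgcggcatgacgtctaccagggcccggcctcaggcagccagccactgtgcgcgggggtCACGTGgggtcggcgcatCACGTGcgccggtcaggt
Ctsa: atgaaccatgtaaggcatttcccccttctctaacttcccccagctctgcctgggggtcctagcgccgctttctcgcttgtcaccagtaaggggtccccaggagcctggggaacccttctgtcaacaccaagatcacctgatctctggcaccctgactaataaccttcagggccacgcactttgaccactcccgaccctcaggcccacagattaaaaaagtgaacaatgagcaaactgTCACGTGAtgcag
Ctsd: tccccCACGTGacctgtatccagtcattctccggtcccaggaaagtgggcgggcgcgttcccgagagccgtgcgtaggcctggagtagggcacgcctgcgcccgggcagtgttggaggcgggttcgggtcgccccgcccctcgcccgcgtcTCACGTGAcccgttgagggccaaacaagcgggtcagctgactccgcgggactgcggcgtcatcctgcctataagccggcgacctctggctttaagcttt
Mcoln1: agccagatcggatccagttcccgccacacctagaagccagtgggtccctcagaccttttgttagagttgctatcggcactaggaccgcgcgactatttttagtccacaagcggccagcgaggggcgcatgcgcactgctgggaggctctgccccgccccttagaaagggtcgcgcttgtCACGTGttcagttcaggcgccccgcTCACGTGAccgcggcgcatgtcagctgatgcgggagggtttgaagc
Lamp1: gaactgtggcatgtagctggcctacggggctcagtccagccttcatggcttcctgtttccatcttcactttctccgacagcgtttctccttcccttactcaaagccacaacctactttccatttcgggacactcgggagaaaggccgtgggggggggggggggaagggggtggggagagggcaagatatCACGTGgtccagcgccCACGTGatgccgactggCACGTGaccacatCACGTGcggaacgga
Gusb: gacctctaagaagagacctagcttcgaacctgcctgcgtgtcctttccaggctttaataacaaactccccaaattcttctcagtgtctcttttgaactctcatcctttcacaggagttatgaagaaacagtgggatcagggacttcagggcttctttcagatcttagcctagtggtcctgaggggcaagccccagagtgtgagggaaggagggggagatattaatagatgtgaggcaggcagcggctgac
Lamp1 held 4 matches within its last bases before the start, the nearest ending 9 bases from it. Atp6v0b, Ctsd and Mcoln1 held 2 each, and in Ctsa the last match ended 5 bases before the start.

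Macrophage/monocyte-like cells had the highest mean level of 30 of the 38 genes among the 11 classes. These are descriptions, since the same genes entered the clustering. Ctss, a cysteine protease of antigen-presenting cells, was at 2276 ± 410 CPM there (SD, n = 6 libraries) and at 18.5 ± 16.3 CPM in fibroblast/tenocyte-like cells. Ctsb, another cysteine protease, was at 6853 ± 857 against 441 ± 109 CPM. Atp6v0d2, the V0 d subunit of osteoclasts and some macrophages, was at 71.3 ± 18.9 against 0.659 ± 0.697 CPM. At the other end, Lamp2, a glycoprotein of the lysosomal membrane, and Atp6v0e, a small V0 subunit, differed little between these 2 classes, with macrophage/monocyte-like means 1.15 and 1.36 times the fibroblast/tenocyte-like ones.

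The 8 exceptions fell in 4 classes. Atp6v1e1, Atp6v1h, Atp6v0e and Atp6ap2 were highest in the neutrophil-like cells, of which only 4 libraries held at least 10. The only SHAM library among those was replicate 1. Their means there were 236, 83.5, 503 and 178 CPM, against 215, 76.9, 411 and 141 CPM in macrophage/monocyte-like cells. The gaps for Atp6v1e1 and Atp6v1h were thus small, and the sums of neutrophil-like cells were shallow. Ctsk, a collagen-degrading protease, was at 377 ± 64.8 CPM in fibroblast/tenocyte-like and at 33.9 ± 24 CPM in macrophage/monocyte-like cells (SD, n = 6). Gaa, acid alpha-glucosidase, was also highest in fibroblast/tenocyte-like cells, at 94.9 ± 23.2 against 47.4 ± 6.02 CPM. Cd63, a tetraspanin of late endosomes, was highest in myogenic-like cells at 2059 ± 411 CPM. Atp6v1g1, a V1 stalk subunit, was at 453 ± 51.2 CPM in myofibre-like and 437 ± 65.9 CPM in macrophage/monocyte-like cells, a gap within the spread of the libraries.

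**Figure D1:**
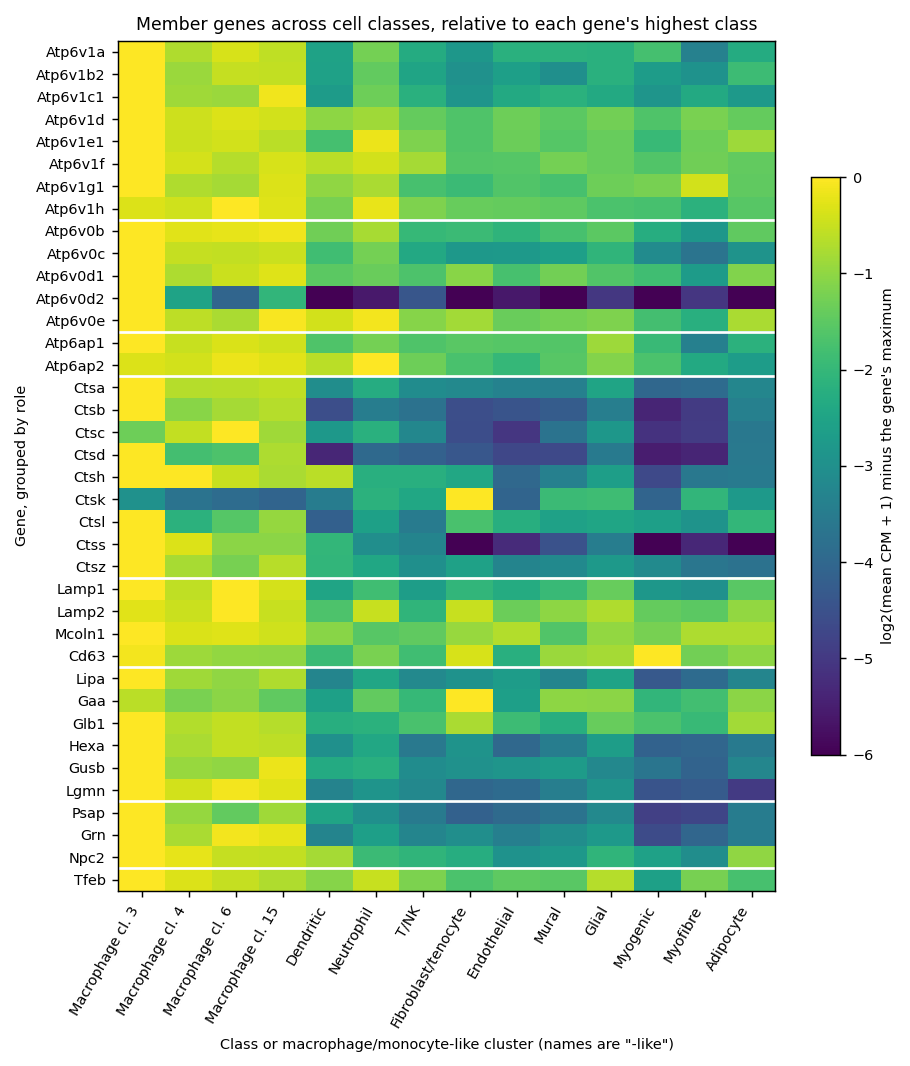
Level of the 38 genes (rows, grouped by role with white lines between roles) in the macrophage/monocyte-like clusters and the other classes (columns), as log2(mean CPM + 1) minus the gene's highest column, so that 0 (yellow) is the highest. The colour scale ends at -6; most genes are yellow in the macrophage/monocyte-like columns, while Ctsk and Gaa are yellow in the fibroblast/tenocyte-like one.

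The macrophage/monocyte-like class held 4 clusters. Cluster 3 was led by Gpnmb, Mmp12 and Atp6v0d2, cluster 4 by Il1b, Cd74 and H2-Aa, cluster 6 by Ccl8, F13a1 and Cbr2, and cluster 15 by cell-cycle genes. Atp6v0d2 had 174 ± 30.3 CPM in cluster 3, 29.3 ± 18.6 in cluster 4 and 9.68 ± 9.79 in cluster 6 (SD, n = 6 libraries each), and 41.4 ± 19.6 in cluster 15 (n = 4). Ctsd, an aspartyl protease, was at 8282 ± 1166 CPM in cluster 3 and at 2376 ± 466 and 2608 ± 565 CPM in clusters 4 and 6, which did not differ beyond their spread. Ctsl, a cysteine protease, was at 1871 ± 398 CPM in cluster 3, 423 ± 68.7 in cluster 4 and 629 ± 31.5 in cluster 6. Ctsc, which activates granule proteases, was lowest in cluster 3, with 345 ± 40.5 CPM in cluster 3, 592 ± 37.8 in cluster 4 and 871 ± 66.0 in cluster 6.

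Across 30 sums of a class in a library, the 5 genes of 4824 most like Atp6v0d2 by Spearman's rho of log2(CPM + 1) were C5ar1 (0.828), Plekhm1 (0.821), AU020206 (0.812), Atp6v1e1 (0.789) and Dmxl2 (0.788). The sums share libraries and depth, and rho is a description.

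In macrophage/monocyte-like cells as a whole, none of the 38 genes passed the test between CLL and SHAM, while the V-ATPase genes lay on the higher side. All 38 were tested and 0 passed, against 5.08% of all 11506 genes tested. At an unadjusted p under 0.05 there were 6, beside 2483 of all 11506 genes. DESeq2 called 1, Gusb, beside 7.19% of all genes. The CLL sums came from 519 to 1043 cells and the SHAM sums from 422 to 5801. The fitted fold was above 0 for 14 of the 15 V-ATPase genes, with a median of 0.21, and for 11 of the 23 others, with a median of -0.04, while the median over all genes was -0.01. The split over all 38 genes, 25 above and 13 below 0, was the same with DESeq2's size factors.

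All 8 V1 genes had folds above 0, with a median of 0.23. The CLL libraries all lay above all SHAM libraries for 5 of them, Atp6v1a, Atp6v1c1, Atp6v1d, Atp6v1e1 and Atp6v1h, and for Atp6v0b of the V0 sector. In the class, 13.3% of all genes showed that order. Atp6v1h, a regulatory subunit, was at 90.7, 101 and 79.4 CPM in CLL replicates 1 to 3 and at 67.0, 69.5 and 53.7 CPM in SHAM replicates 1 to 3. Its fold of 0.51 ± 0.15 had the smallest adjusted p of the 38, 0.085 (edgeR). Atp6v1a, the subunit that splits ATP, was at 279, 251 and 261 against 225, 198 and 216 CPM (0.31 ± 0.12, adjusted p = 0.182). Atp6v1c1, which joins V1 to V0, was at 109, 101 and 104 against 83.8, 85.8 and 86.0 CPM (0.30 ± 0.11, adjusted p = 0.154). The groups did not overlap for these 3 genes, and none of the 3 passed.

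Atp6v0d2 was the only pump gene with a fold below 0 in the whole class. It was at 57.7, 55.9 and 87.6 CPM in CLL and at 83.1, 49.7 and 93.7 CPM in SHAM (-0.18 ± 0.23, adjusted p = 0.722), so the groups overlapped. The share of the class in cluster 3, where the gene is highest, was 24.1%, 22.9% and 35.1% of cells in CLL and 22.9%, 15.9% and 21.3% in SHAM. Cluster 4 held 45.8%, 25.4% and 44.0% against 60.6%, 65.9% and 55.1%, and cluster 6 held 25.2%, 48.0% and 17.4% against 15.1%, 17.8% and 21.8%. With the log2 levels of clusters 3, 4 and 6 given equal weight in each library (limma), the difference was -1.29 with an adjusted p of 0.0119. That weighting counts cluster 6, with 2, 2 and 5 UMIs of Atp6v0d2 in CLL, as much as cluster 3, with 318, 194 and 612. It is therefore not a measure of the gene's level in the class, and the fits within each cluster are given below.

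None of the 9 cathepsins passed and all 9 overlapped between the groups in the whole class, with a median fold of 0.01. Ctsb was at 7571, 5574 and 7484 CPM in CLL and at 6248, 6564 and 7674 CPM in SHAM (0.01 ± 0.19). Ctsd ranged from 3251 to 6302 CPM in CLL and from 3341 to 4308 in SHAM (0.33 ± 0.24), and Ctsl from 865 to 1098 and from 657 to 1037 CPM (0.13 ± 0.20). These 3 abundant proteases gave no ordered difference between the groups. Ctss was at 2125, 1799 and 2096 against 2090, 2644 and 2899 CPM (-0.34 ± 0.18). Ctsh, a cysteine aminopeptidase, was at 624, 471 and 740 against 715, 1040 and 909 CPM (-0.54 ± 0.20, adjusted p = 0.142, edgeR). Ctsk was at 25.7, 13.4 and 78.7 against 38.9, 15.0 and 31.7 CPM (0.45 ± 0.51), and CLL replicate 3 alone set its higher mean.

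Of the membrane genes, Lamp1 was at 1183, 1231 and 1200 CPM in CLL and 1027, 1141 and 1276 in SHAM (0.07 ± 0.15). Mcoln1, a cation channel of the lysosomal membrane, was at 12, 9.94 and 8.97 against 12.5, 14 and 14.4 CPM (-0.40 ± 0.18, adjusted p = 0.22). It was the only 1 of the 38 with all CLL libraries below all SHAM libraries, an order that 13.3% of all genes showed. Tfeb was at 16.5, 16.9 and 27.0 against 25.7, 26.8 and 22.9 CPM (-0.30 ± 0.19), with CLL replicate 3 just above the SHAM range and the other CLL libraries below it. Gusb, beta-glucuronidase, was at 302, 197 and 334 against 187, 183 and 197 CPM (0.55 ± 0.18, adjusted p = 0.102). CLL replicate 2 lay at the level of SHAM for Gusb, and the other CLL libraries lay above it.

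Other genes of the pathway gave few calls in the whole class. None of 4 further V-ATPase subunits, 42 further hydrolases and 18 genes of the TFEB family, its docking complex and cathepsin inhibitors passed. Of 34 genes of lysosomal membrane, transport and sorting, 1 fell: Laptm4a, a small lysosomal membrane protein, was at 191, 197 and 206 CPM in CLL and at 288, 278 and 267 CPM in SHAM (-0.49 ± 0.12, adjusted p = 0.0485, edgeR). Among the marker lists of the same cells, 7 of 7 genes of the MHC class II list fell (median -1.49), and 0 of 8 of the lipid-handling list passed. Of 18 macrophage markers 4 fell, and their summed level was 38344 to 50657 CPM in CLL and 61124 to 83865 CPM in SHAM. Fibroblast markers summed to 1757 to 2457 CPM in CLL and 1499 to 4457 CPM in SHAM. The part of these shifts in the values above was not tested.

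**Figure D2:**
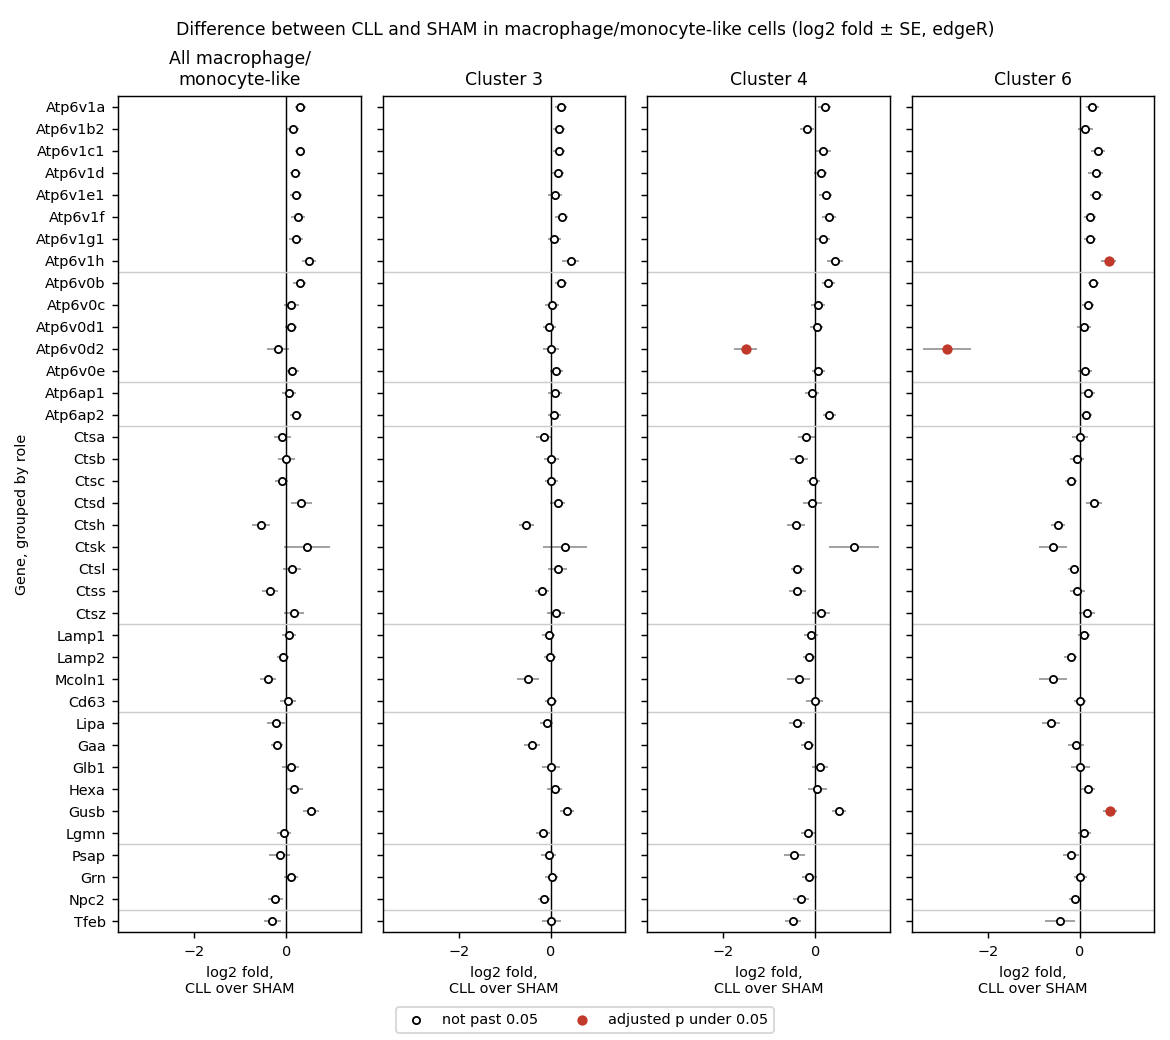
Fold between CLL and SHAM for each gene (log2 with its SE as a bar, 3 libraries per group) in all macrophage/monocyte-like cells and in clusters 3, 4 and 6, with filled red points where the adjusted p was under 0.05. The V1 genes at the top lie mostly to the right of 0, and Atp6v0d2 lies far to the left in clusters 4 and 6 and at 0 in cluster 3.

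Within clusters, Atp6v0d2 was lower with CLL in clusters 4 and 6 and not in cluster 3. All 38 genes were tested in each of the 3 clusters. In cluster 3, 0 of 38 passed, where 1.54% of all genes did, and DESeq2 called none. At an unadjusted p under 0.05 there were 4 members, beside 1292 of all 9098 genes. Atp6v0d2 was at 155, 199 and 174 CPM in CLL and at 207, 124 and 183 CPM in SHAM (0.01 ± 0.18). In cluster 4, Atp6v0d2 was the 1 of 38 that passed (4.14% of all genes). It was at 17.5, 7.79 and 16.9 against 38.4, 37.3 and 58.1 CPM, a fold of -1.51 ± 0.25 (adjusted p = 0.00637, edgeR). Every CLL library lay below every SHAM library. These levels rest on 47, 7 and 51 UMIs in 18, 4 and 23 cells in CLL, and on 439, 132 and 261 UMIs in SHAM. The 5 cells with most held 31 of the 47 in CLL replicate 1 and 25 of the 51 in CLL replicate 3. Without CLL replicate 1 the adjusted p was 0.0629, and without CLL replicate 3 it was 0.0559.

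In cluster 6, 3 of 38 passed (3.95% of all genes), 1 lower (2.32% of all) and 2 higher (1.63% of all). Atp6v0d2 was at 1.46, 1.41 and 4.53 CPM in CLL and at 13.8, 9.92 and 27.0 CPM in SHAM, a fold of -2.89 ± 0.53 (adjusted p = 0.0115, edgeR). These levels rest on 2, 2 and 5 UMIs in CLL and 35, 9 and 45 in SHAM, and the 5 cells with most held 39 of the 45 in SHAM replicate 3. A count of 3 UMIs would be 2.08, 2.17 and 2.69 CPM in the CLL libraries, so CLL replicates 1 and 2 were under that floor. Without CLL replicate 1 the adjusted p was 0.0794 and without CLL replicate 2 it was 0.0651. A difference of the effect between clusters was not tested.

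Gpnmb, a leading gene of cluster 3, was at 450, 57.9 and 373 CPM in CLL and 526, 376 and 803 CPM in SHAM in cluster 4 (-0.91 ± 0.48). In cluster 6 it was at 145, 41.6 and 103 against 145, 88.2 and 272 CPM (-0.86 ± 0.40), and neither passed. Mmp12, another leading gene of cluster 3, was at 212, 93.5 and 117 against 101, 24.9 and 106 CPM in cluster 4 (0.90 ± 0.41). In cluster 6 Mmp12 was at 16.8, 8.45 and 13.6 against 7.47, 1.10 and 7.20 CPM (1.05 ± 0.43), without overlap. Its folds were thus above 0 in both clusters, and neither passed. The part of cluster 3 cells in the Atp6v0d2 values was not tested.

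Gusb rose in cluster 6, at 239, 170 and 224 CPM in CLL against 135, 116 and 137 CPM in SHAM (0.66 ± 0.16, adjusted p = 0.0399, edgeR). Atp6v1h rose there too, at 136, 115 and 100 against 78.3, 78.3 and 64.8 CPM (0.64 ± 0.16, adjusted p = 0.0486). Neither overlapped between the groups. The Gusb call was lost without CLL replicate 1 or 3 or SHAM replicate 2 or 3, with adjusted p up to 0.203. The Atp6v1h call was lost without any 1 library other than SHAM replicate 1, with DESeq2, with a replicate block and with a limit of 10% mitochondrial UMIs, where adjusted p reached 0.242. In cluster 4 Gusb was at 230, 170 and 231 against 136, 160 and 153 CPM (0.52 ± 0.15, adjusted p = 0.0761), again without overlap.

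In cluster 6, 7 of the 8 genes of the V1 sector had all CLL libraries above all SHAM libraries. Atp6v1b2 was the exception. Over the 38 genes, 10 lay above and 6 below without overlap, next to 12.9% and 10.5% of all genes. The summed level of the 15 pump genes in cluster 6 was 4395, 4302 and 4422 CPM in CLL and 3777, 3670 and 3552 CPM in SHAM, without overlap. That order was not particular to cluster 6. The sum was at 1426, 1313 and 1576 against 1239, 1259 and 1177 CPM in myogenic-like cells. In cluster 17 the sum was at 7360, 3025 and 6972 against 2558, 2611 and 2217 CPM, and fibroblast/tenocyte-like cells, given below, showed the same order. The sum overlapped in the whole macrophage/monocyte-like class (5024, 4294 and 5330 against 4164, 4391 and 4315 CPM), in cluster 3 (6406, 5579 and 6281 against 5504, 5834 and 5516 CPM) and in cluster 4 (4385, 3762 and 4301 against 3631, 4034 and 3830 CPM). In each of these CLL replicate 2 lay within the SHAM range and the other CLL libraries lay above it. Outside the list, Atp6v0a1, a V0 subunit that holds the proton channel, rose in cluster 6, at 140, 141 and 121 against 89.3, 83.8 and 90.0 CPM (0.58 ± 0.14, adjusted p = 0.0416, edgeR). M6pr, the receptor that carries hydrolases to lysosomes, rose at 243, 236 and 233 against 135, 149 and 148 CPM (0.69 ± 0.13, adjusted p = 0.0146), and Cst3, a cathepsin inhibitor, fell at 2004, 1822 and 2088 against 2680, 3289 and 2994 CPM (-0.63 ± 0.15, adjusted p = 0.0318). Of the other pathway lists in cluster 6, that made 1 of 3 further pump subunits, 1 higher and 1 lower (Laptm4a) of 30 membrane and sorting genes, 1 of 17 regulators and inhibitors and 0 of 42 hydrolases.

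In cluster 4 folds were below 0 for 18 of the 23 genes outside the pump, with a median of -0.16, and above 0 for 12 of 15 pump genes. A difference between clusters was not tested. Folds below 0 were also the more frequent for these 23 genes in fibroblast/tenocyte-like (17), endothelial-like (21) and dendritic-like cells (19). Of the 38 genes, 6 lay below and 3 above without overlap in cluster 4, near the shares of all genes (13.3% and 10.6%). Ctsl was at 367, 345 and 379 CPM in CLL and at 486, 453 and 510 CPM in SHAM (-0.39 ± 0.14, adjusted p = 0.143, edgeR). Tfeb was at 19.0, 14.5 and 19.2 against 25.7, 28.0 and 23.4 CPM (-0.48 ± 0.18, adjusted p = 0.164). Neither overlapped and neither passed. M6pr rose in cluster 4 as well, at 268, 234 and 227 against 163, 178 and 157 CPM (0.57 ± 0.14, adjusted p = 0.0402). Pla2g15, a lysosomal phospholipase, fell at 33.2, 36.7 and 47.4 against 62.0, 63.3 and 65.6 CPM (-0.67 ± 0.16, adjusted p = 0.038), and Laptm4a fell too. In cluster 3 none of these lists held a gene that passed.

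**Figure D3:**
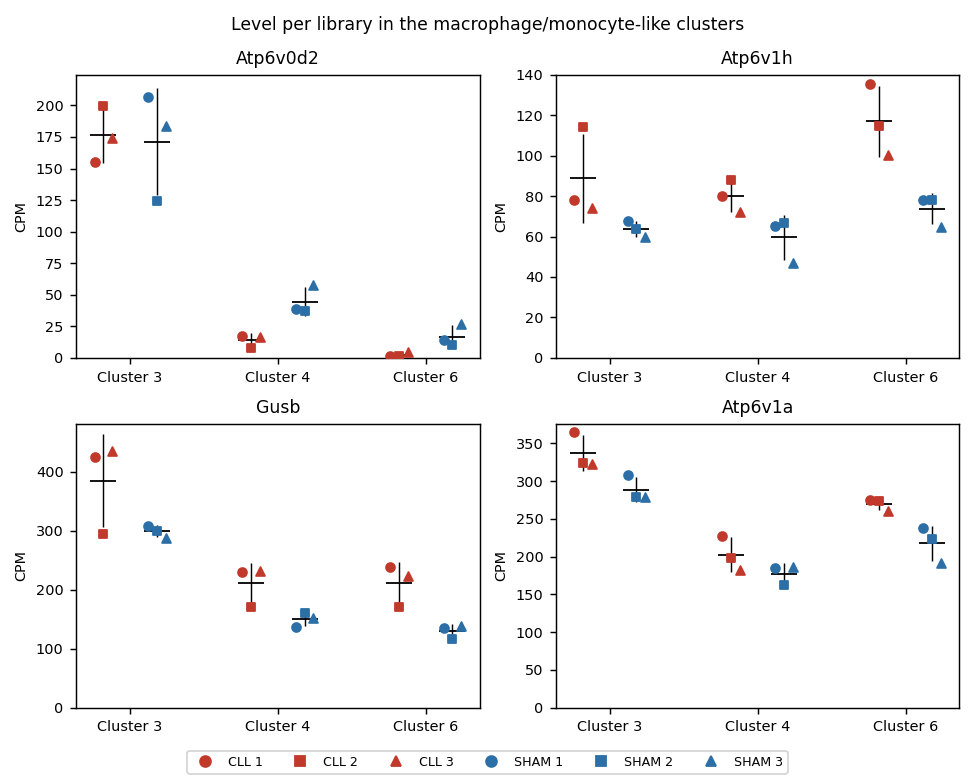
CPM of Atp6v0d2, Atp6v1h, Gusb and Atp6v1a in each library (points; red CLL, blue SHAM, shape for replicate) in the macrophage/monocyte-like clusters 3, 4 and 6, with the mean and SD of 3 libraries as lines. Atp6v0d2 overlaps in cluster 3 and separates in clusters 4 and 6, while Atp6v1h lies higher in CLL in all 3 clusters.

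Cluster 17 was left without a name, and all of its pump genes had folds above 0, though no member passed. It was led by Acp5, an acid phosphatase known from osteoclasts, by Gm26917, which overlaps ribosomal RNA, and by Ctsk, Ccl9 and, lower in its leading genes, Atp6v1b2. The cluster was tested after its leading genes were seen. It held 140, 571 and 163 cells in CLL and 350, 51 and 405 in SHAM. Of the 37 members tested (not Mcoln1), 0 passed edgeR, as did 0.0135% of all genes, and DESeq2 called 8 (3.38% of all genes). At an unadjusted p under 0.05 there were 19, beside 1338 of all 7408 genes. The median fold of the 15 V-ATPase genes was 1.25, and 10 of them lay above SHAM in all CLL libraries (12.1% of all genes did). Of the 22 others 15 had folds below 0 and 7 above. Without overlap, 10 of them lay below (12.3% of all genes) and 2 above.

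CLL replicates 1 and 3 carried this pattern, and CLL replicate 2 lay near SHAM. Ctsk was at 2712, 530 and 2721 CPM in CLL and at 158, 446 and 198 CPM in SHAM (2.90 ± 0.65, adjusted p = 0.0943, edgeR). Atp6v0c, the main proteolipid of the V0 ring, was at 2146, 760 and 2100 against 678, 710 and 580 CPM (1.35 ± 0.39, adjusted p = 0.127). Atp6v1b2, the V1 subunit that binds nucleotide without splitting it, was at 351, 101 and 305 against 78.0, 91.6 and 56.8 CPM (1.74 ± 0.45, adjusted p = 0.11). Atp6v0d2 was at 322, 47.1 and 273 against 53.1, 46.7 and 10.1 CPM (2.54 ± 0.73, adjusted p = 0.124), and it overlapped by CLL replicate 2. Without that library 21 members had an adjusted p under 0.05, as did 23.7% of all genes.

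The hydrolases of cluster 17 lay on both sides. Folds were above 0 for 2 of 9 cathepsins, Ctsk and Ctsa, and for 2 of 6 other hydrolases, Gusb and Glb1. Ctsk, given above, and Gusb, at 140, 105 and 131 against 93.9, 62.2 and 78.1 CPM (0.67, adjusted p = 0.206, edgeR), lay above SHAM in all CLL libraries. Others lay lower. Ctsb was at 2069, 2431 and 1891 CPM in CLL and at 3088, 2454 and 2607 CPM in SHAM (-0.36 ± 0.24). Ctsh was at 151, 215 and 174 against 313, 346 and 404 CPM (-0.98 ± 0.25, adjusted p = 0.108, edgeR), and Lipa, lysosomal acid lipase, at 50.8, 71.8 and 73.1 against 133, 128 and 112 CPM (-0.93 ± 0.24, adjusted p = 0.11). Lamp2 was at 129, 240 and 151 against 304, 337 and 299 CPM (-0.86 ± 0.27, adjusted p = 0.153). For Ctsb, Ctsh, Lipa and the membrane gene Lamp2 all CLL libraries lay below all SHAM libraries.

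Other osteoclast genes, chosen after their values were seen, had the same 2 high libraries. Acp5 was at 2219, 243 and 2194 CPM in CLL against 71.8, 230 and 56.8 CPM in SHAM (3.72 ± 0.85, adjusted p = 0.0979, edgeR). Mmp9, a gelatinase also on the neutrophil marker list, was at 1537, 146 and 1547 against 9.66, 25.9 and 11.2 CPM (6.21 ± 0.92, adjusted p = 0.0636, edgeR). Neither passed. Dcstamp, a cell-fusion protein, was at 47.7, 7.24 and 43.0 against 0, 3.46 and 1.01 CPM. Cells holding a UMI of each of Acp5, Ctsk and Atp6v0d2 came to 11, 6 and 11 in the CLL libraries and to 11, 2 and 4 in the SHAM libraries. The 5 cells with most Atp6v0d2 held 130 of its 209 UMIs in CLL replicate 1 and 100 of 127 in CLL replicate 3. Fibroblast markers summed to 6677, 22370 and 4281 CPM in CLL and to 26889, 20128 and 25764 CPM in SHAM in the same sums. Transcripts that overlap ribosomal RNA took 25.3%, 18.8% and 23.0% of the UMIs in CLL and 4.58%, 15.1% and 19.9% in SHAM. The part of either in the folds was not tested.

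**Figure D4:**
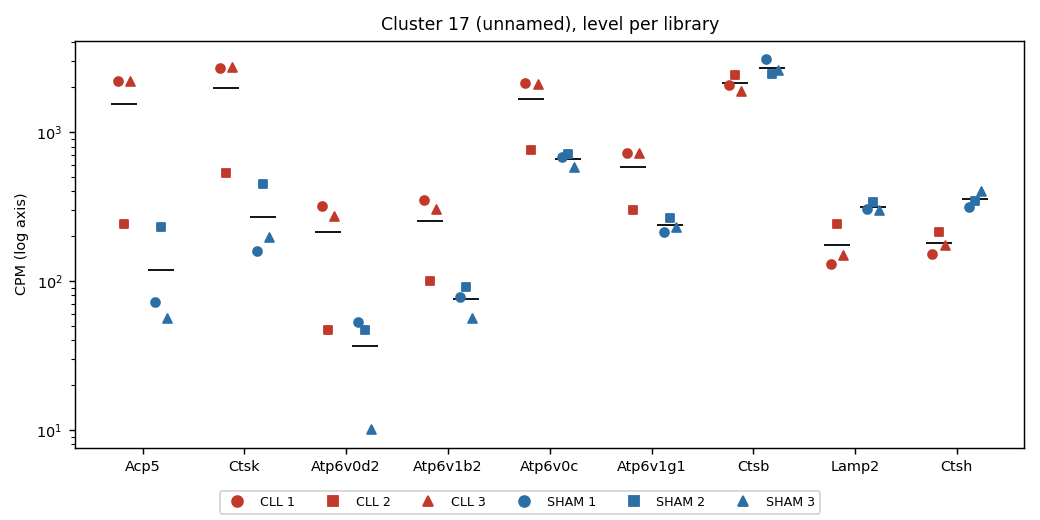
CPM on a log axis of Acp5 and 8 member genes in cluster 17, per library (points; red CLL, blue SHAM, shape for replicate) with the mean of 3 libraries as a line. CLL replicates 1 and 3 lie high for Ctsk and the pump genes and CLL replicate 2 lies near SHAM, while Ctsb, Lamp2 and Ctsh lie lower in CLL.

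In fibroblast/tenocyte-like cells, 12 of the 38 genes passed, 11 lower and 1 higher with CLL, in a class where 27.2% of all 14170 genes passed (14.6% lower and 12.7% higher). The lower ones were Ctss, Mcoln1, Ctsb, Grn, Gaa, Psap, Lamp2, Atp6v1b2, Lipa, Ctsa and Atp6ap2, so 9 of the 11 were hydrolases, their helpers or membrane genes and 2 were of the pump. Ctsb was at 365, 317 and 347 CPM in CLL and at 536, 558 and 521 CPM in SHAM (-0.71 ± 0.12, adjusted p = 0.00164, edgeR). Psap, the precursor of the saposins that help lipid hydrolases, was at 341, 295 and 335 against 498, 444 and 470 CPM (-0.59 ± 0.12, adjusted p = 0.00423). Gaa was at 83.4, 67.4 and 80.5 against 93.0, 128 and 117 CPM (-0.60 ± 0.14, adjusted p = 0.0108). Lamp2 was at 260, 265 and 250 against 362, 364 and 316 CPM (-0.48 ± 0.11, adjusted p = 0.0108). The groups did not overlap for any of the 12, which were picked by the test on the same values. Over the 38 genes, 8 lay above and 13 below without overlap, beside 24.6% and 19.6% of all genes. Of the 15 pump genes 5 lay above and 3 below.

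Ctsh rose, at 156, 179 and 190 CPM in CLL against 128, 127 and 136 CPM in SHAM (0.37 ± 0.11, adjusted p = 0.0333, edgeR). Grn, progranulin, fell at 191, 163 and 204 against 296, 267 and 256 CPM (-0.61 ± 0.12, adjusted p = 0.00452). Mcoln1 fell at 5.45, 5.34 and 4.99 against 7.42, 8.58 and 9.84 CPM (-0.75 ± 0.17, adjusted p = 0.00799). Lipa, Ctsa, Atp6ap2 (an assembly factor of the pump, also known as the prorenin receptor) and Atp6v1b2 fell by 0.45, 0.43, 0.38 and 0.47 on the log2 scale. The calls of Atp6v1b2, Atp6ap2, Ctsa and Ctsh were each lost when any of several single libraries was left out, and that of Lamp2 without CLL replicate 3. The summed level of the pump genes was 1515, 1586 and 1623 CPM in CLL and 1469, 1378 and 1382 CPM in SHAM, without overlap.

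The mix of fibroblast clusters differed between the groups. Cluster 7, led by Sfrp1, Cthrc1 and Ltbp2, held 78.4%, 75.2% and 83.9% of the class in CLL and 18.5%, 9.76% and 12.2% in SHAM. Cluster 9, led by Dlk1 and Clec3b, held 15.3%, 8.46% and 11.3% against 75.8%, 78.4% and 76.5%. Within cluster 7 alone 1 of the 38 passed, Ctss, where 2.17% of all genes passed. Within cluster 9 alone 0 of 37 tested passed, where 2.33% of all genes passed, and DESeq2 called none. There 4 members had an unadjusted p under 0.05, beside 1958 of all 11521 genes. In cluster 7, Ctsb was at 333, 278 and 315 against 389, 466 and 358 CPM (-0.45 ± 0.16, adjusted p = 0.172, edgeR), and the folds of Gaa (0.10) there and of Atp6ap2 in cluster 9 (0.02) lay above 0.

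Beyond the 38, the fibroblast/tenocyte-like class had 18 of 43 further hydrolases lower and 1 higher, and 12 of 33 membrane, transport and sorting genes lower, beside 14.6% of all genes lower and 12.7% higher in this class. Of 6 further pump subunits 2 were lower and 1, Atp6v0a2, higher. Of 17 regulators and inhibitors, Mitf, a relative of Tfeb, was lower at 9.17, 7.34 and 7.17 CPM in CLL against 17, 20.5 and 12.5 CPM in SHAM (-1.13 ± 0.18, adjusted p = 0.00154, edgeR). Flcn, a regulator of that family at the lysosome, was also lower (-0.92 ± 0.17, adjusted p = 0.00273), and Lamtor4, of the docking complex, was higher (0.41 ± 0.13, adjusted p = 0.0416). Tfeb itself was at 6.76, 7.41 and 9.12 against 7.42, 10.2 and 4.99 CPM (-0.01 ± 0.22). Within cluster 7 alone 1 of 43 hydrolases and 2 of 33 membrane and sorting genes were lower (2.17% of all genes passed). Within cluster 9 alone 0 of 42 and 0 of 32 passed (2.33% of all genes). Of 16 regulators and inhibitors tested in each cluster, 0 passed. The lower genes of the class included the macrophage markers Lyz2 (-2.09 ± 0.42) and Cd68 (-1.47 ± 0.21). The part of cluster mix and macrophage RNA in these calls was not tested.

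Ctss had the largest fold of the 38 in fibroblast/tenocyte-like cells and was lower in endothelial-like cells as well, beside macrophage transcripts in both. In fibroblast/tenocyte-like cells it was at 5.06, 6.85 and 6.77 CPM in CLL and at 40.3, 13.8 and 38.1 CPM in SHAM (-2.37 ± 0.31, adjusted p = 0.000541, edgeR). In cluster 7 alone it was at 4.87, 5.23 and 5.06 against 23.3, 44.1 and 7.12 CPM (-2.30 ± 0.35, adjusted p = 0.00428). The macrophage genes C1qa, a complement component, and Lyz2, lysozyme, had folds of -2.08 ± 0.35 and -2.09 ± 0.42 in the same sums, and 14 of 16 tested macrophage markers were lower. Their summed level was 414, 917 and 512 CPM in CLL and 1798, 824 and 1205 CPM in SHAM.

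The summed C1q genes stood at 0.334% (CLL) and 1.32% (SHAM) of their macrophage/monocyte-like level in the fibroblast/tenocyte-like sums. Those shares of the macrophage/monocyte-like Ctss level differ by 25.3 CPM between the groups, beside an observed difference of 24.5 CPM. For Ctsb they differ by 66.7 CPM beside an observed 196, for Psap by 50.1 beside 147, for Lamp2 by 3.55 beside 88.6, and for Gaa by 0.508 beside 35.5 CPM. This scaling takes the macrophage/monocyte-like profile of the same library as fixed, and the part of macrophage RNA in any of these differences was not tested.

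In endothelial-like cells 1 of 37 tested genes passed, against 0.46% of all 9349 genes tested. Atp6v0d2 was not tested there or in myogenic-like and dendritic-like cells because its counts were too low. Among the 23 genes outside the pump, 21 had folds below 0 in endothelial-like cells, with a median of -0.46 beside -0.01 over all genes. Over the 37 genes, 7 lay below and 0 above without overlap, beside 1115 and 411 of all 9349 genes. The part of macrophage RNA in these folds was not tested. Ctss was at 0, 22.5 and 20.6 CPM in CLL and at 97.1, 87.4 and 219 CPM in SHAM (-2.92 ± 0.54, adjusted p = 0.0356, edgeR). It rests on 0, 9 and 7 UMIs in CLL and 911, 205 and 612 in SHAM. CLL replicate 1 held 39 endothelial-like cells, and a floor of 3 UMIs there is 15.6 CPM. C1qa was at 32.4, 37.4 and 82.4 against 206, 175 and 241 CPM, and 7 of 14 tested macrophage markers were lower. The Ctss call was lost without any 1 of the CLL libraries or SHAM replicate 1, with adjusted p up to 0.131.

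**Figure D5:**
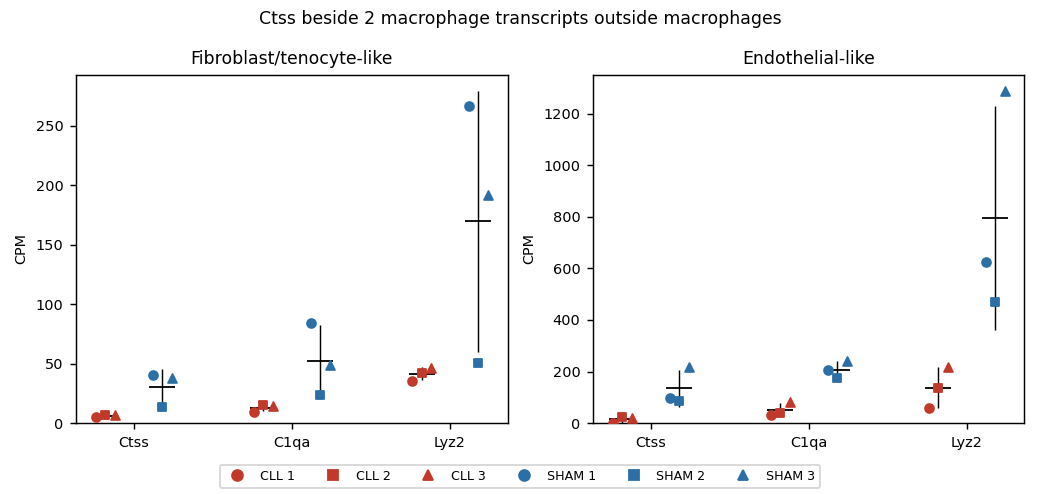
CPM of Ctss beside the macrophage genes C1qa and Lyz2 in fibroblast/tenocyte-like (left) and endothelial-like (right) cells, per library (points; red CLL, blue SHAM, shape for replicate) with the mean and SD of 3 libraries. All 3 genes lie lower in CLL in both classes.

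In myogenic-like cells 3 of 37 genes passed, in a class where 13.4% of all 10996 genes passed. Ctsk fell, at 7.59, 15.2 and 15.5 CPM in CLL against 36.0, 22.1 and 33.5 CPM in SHAM (-1.37 ± 0.27, adjusted p = 0.0055, edgeR). Beside it, Dcn, a fibroblast proteoglycan, was at 24, 71.4 and 46.3 against 213, 108 and 116 CPM (-1.75 ± 0.34). Of 13 tested fibroblast markers 5 were lower and 1 was higher. Col1a1, another of these markers, overlapped between the groups and did not pass (-0.38 ± 0.25). The summed level of the fibroblast markers overlapped too, at 3996, 6368 and 4675 CPM in CLL and 7530, 4839 and 6004 CPM in SHAM. The part of fibroblast RNA in Ctsk was not tested. Lamp2 fell, at 138, 141 and 130 against 207, 189 and 165 CPM (-0.51 ± 0.13, adjusted p = 0.0219). Atp6v0e rose, at 156, 193 and 206 against 150, 115 and 111 CPM (0.50 ± 0.15, adjusted p = 0.0496). The Lamp2 call was lost without CLL replicate 1 or 3 or SHAM replicate 2, and the Atp6v0e call without CLL replicate 2 or 3 or SHAM replicate 2 or 3.

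In dendritic-like cells 0 of 37 genes passed in edgeR, against 0.751% of all 7055 genes tested, and DESeq2 called 0. At an unadjusted p under 0.05 there were 8, beside 958 of all 7055 genes. Lipa had the smallest p, at 27.0, 19.3 and 24.8 CPM in CLL and 58.8, 61.0 and 35.1 CPM in SHAM (-1.09 ± 0.29, adjusted p = 0.105, edgeR). Its groups did not overlap. CLL replicate 2 held 69 dendritic-like cells with 140967 UMIs over all genes, so its Lipa level rests on few UMIs. SHAM replicate 3 held 32 such cells. Among the 23 genes outside the pump, 19 had folds below 0, with a median of -0.43. Over the 37 genes, 10 lay below and 3 above without overlap, beside 667 and 494 of all 7055 genes. Of 14 pump genes tested, 8 had folds above and 6 below 0, with a median of 0.07 beside -0.06 over all genes. Their summed level overlapped, at 2425, 1947 and 2871 CPM in CLL and 2129, 2476 and 1932 CPM in SHAM. Atp6v1a was at 43.5, 32.1 and 37.7 against 81.8, 55.0 and 66.4 CPM (-0.82 ± 0.26, adjusted p = 0.175). Atp6v1f, a small V1 subunit, was at 333, 353 and 369 against 203, 322 and 247 CPM (0.46 ± 0.24, adjusted p = 0.42), also without overlap but on the higher side.

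The effect of CLL differed between macrophage/monocyte-like and fibroblast/tenocyte-like cells for 8 of the 38 genes, by an edgeR test of the interaction with the library as a block, against 4.17% of all 13601 genes tested. For 7 of them, Grn, Atp6ap2, Ctsb, Atp6v1c1, Ctss, Atp6v1b2 and Atp6v1a, the fold was higher in macrophage/monocyte-like cells. Ctsh had the reverse order, with folds of -0.54 in macrophage/monocyte-like and 0.37 in fibroblast/tenocyte-like cells. For Atp6v1a the folds were 0.31 and -0.36. The count fell to 0 without CLL replicate 1 or 3 and to 1 without CLL replicate 2. It fell to 4 without SHAM replicate 1 and to 2 without SHAM replicate 3. The shares of all genes in these fits are not given. The mix of fibroblast clusters differed between the groups, and its part in these differences was not tested.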

How the data were processed

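The deposited unit is the raw count: the authors' matrices hold UMI counts per gene and barcode. Per the file headers they come from Cell Ranger 6.1.2, and per the submitters' processing notes the genome was mm10. A barcode was kept with at least 300 genes and no more than 15% of its UMIs mitochondrial. By Scrublet score within each library, 7032 were removed as doublets at 0.8% per 1000 barcodes (1.67% to 20.0% of a library), which left 46685 of 60282. Cells were clustered together with scanpy 1.11.5 (2000 variable genes, 30 components, 15 neighbours, Leiden resolution 1, no batch integration) in Python 3.11.15. Clusters were named from 16 marker lists, and the exact form of that rule, like the fits within clusters 7, 9 and 17, was set after the clusters were seen. The members and lists were chosen with earlier results of these data known.

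Counts were summed per library and class, and a class was tested where every library held at least 20 cells. The tests were edgeR 4.0.16 quasi-likelihood fits (R 4.3.3, TMM, filterByExpr, group as the only term) with Benjamini-Hochberg adjustment over all genes, and SEs were taken from the fold and the F statistic. The mouse was the replicate. The CPM printed are scaled by TMM, and UMI floors of 3 counts are unscaled and cover counting error only. Members past the threshold, and 9 genes whatever their p (Atp6v0d2, Ctsk, Ctss, Ctsl, Ctsb, Ctsd, Lamp1, Mcoln1 and Tfeb), were named with their values, and of the other lists those with the smallest p. Pump genes of interest in the macrophage/monocyte-like class, and the genes named in cluster 17, were chosen after their values were seen. Alternatives were RLE factors, DESeq2 1.42.0, no filter, a replicate block, 10% mitochondrial UMIs, a minimum of 1000 UMIs, equal weight of clusters (limma 3.58.1) and leaving out each library. The test scripts were tested on simulated counts. Same-numbered libraries deviated together only in endothelial-like cells, where each of the 3 correlations was over 0.1 (0.114, 0.292 and 0.182); the labels tie no numbers across groups.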

Additional observations from a re-analysis of the deposited data

Results flagged for a closer look

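The effect of CLL differed between macrophage/monocyte-like and fibroblast/tenocyte-like cells by the test of the interaction itself (edgeR, adjusted p under 0.05) for 8 genes. As the macrophage/monocyte-like fold minus the fibroblast/tenocyte-like one, on the log2 scale, the difference was 1.973 for Ctss, 0.751 for Grn, 0.747 for Ctsb, 0.688 for Atp6v1c1, 0.68 for Atp6v1a, 0.636 for Atp6ap2, 0.636 for Atp6v1b2 and -0.873 for Ctsh. The adjusted p ran from 0.0182 for Grn to 0.0491 for Atp6v1a. Over the alternatives run for these genes no difference changed sign, and each lost its call without at least CLL replicates 1 and 3. In fibroblast/tenocyte-like cells the lower Ctss, Ctsb, Grn, Atp6ap2 and Atp6v1b2 stood beside lower macrophage markers (14 of 16 tested). The mix of fibroblast clusters differed as well. Cluster 7 held 78.4%, 75.2% and 83.9% of the class in CLL and 18.5%, 9.76% and 12.2% in SHAM. Within cluster 7 alone only Ctss of these genes passed, and within cluster 9 alone none did. The part of either shift in the differences was not tested.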

How the results depend on the processing

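Of the alternatives run for single named genes, 328 kept direction and call, 103 kept the direction and lost the call, 1 gained it and 13 turned the direction. Within fibroblast/tenocyte-like cluster 9 alone Atp6ap2 had a fold of 0.018, and within cluster 7 alone Gaa had 0.104. The other 11 concern genes of macrophage/monocyte-like cells that passed under neither setting. Leaving out 1 library gave folds from -0.061 to 0.127 for Ctsb (below 0 without CLL replicate 1 or 3 or SHAM replicate 1 or 2), from -0.528 to 0.824 for Ctsk (below 0 without CLL replicate 3), from -0.047 to 0.226 for Ctsl (below 0 without SHAM replicate 2) and from -0.006 to 0.138 for Lamp1 (below 0 without SHAM replicate 1). With equal weight of clusters the folds were -0.13 for Ctsb, -0.015 for Ctsk, -0.115 for Ctsl and -0.003 for Lamp1. Within cluster 7 alone 1 member passed and within cluster 9 alone 0, against 12 in the class. These fits and those of cluster 17 were chosen after seeing the data. DESeq2 called 1 member in macrophage/monocyte-like cells (Gusb), 2 in endothelial-like cells and 8 in cluster 17. Without the filter on low counts 2 passed in macrophage/monocyte-like cells (Atp6v1h and Gusb), 2 in cluster 4 and 15 in cluster 17, and with equal weight of clusters 1 passed (Atp6v0d2). Leaving out 1 library gave counts of 0 to 1 in macrophage/monocyte-like cells, 0 to 1 in cluster 3, 0 to 2 in cluster 4, 0 to 4 in cluster 6, 7 to 13 in fibroblast/tenocyte-like, 0 to 1 in endothelial-like, 1 to 3 in myogenic-like and 0 to 1 in dendritic-like cells, 0 to 21 in cluster 17 and 0 to 9 for the interaction. DESeq2 called 7.19% of all genes in macrophage/monocyte-like cells and 3.38% in cluster 17. Without CLL replicate 2, which gave the 21 members, 23.7% of all genes passed in cluster 17. Within clusters 7 and 9 alone the shares were 2.17% and 2.33%. For the other alternatives the share of all genes is not given, so their counts are no result about the members. The cause of these changes was not tested.

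The labels tie no replicate numbers across groups, so the replicate block pairs CLL and SHAM libraries by number alone. With the replicate block, 1 member passed in myogenic-like cells (Ctsk), 11 in fibroblast/tenocyte-like, 2 in cluster 6, 1 each in cluster 4 and endothelial-like cells, and 0 in macrophage/monocyte-like and dendritic-like cells and clusters 3 and 17. The shares of all genes that passed with this block are not given. Low counts limit 2 of the calls most: 9 UMIs of Atp6v0d2 over CLL in cluster 6, and 16 of Ctss over CLL in endothelial-like cells, carried those calls. The Atp6v0d2 call in cluster 4 also rests on few UMIs in CLL, with 47, 7 and 51 in replicates 1 to 3.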
